A study of Mus musculus with 9 samples.

Results

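The differentially methylated regions (DMRs) described here combine a control mean at the floor of the table with a high mean after modified maternal separation (MMS) of mouse pups. They were chosen by the authors' group means themselves. A DMR on an autosome was selected where the control mean stood at the lowest value that the control column takes, -0.17 on the log2 scale, and the MMS mean was 4.5 or more. In normalised reads these limits are 0.889 in control and 22.6 in MMS. The rule selected 439 of 12845 listed autosomal DMRs, a share of 3.42%, and of 12949 listed DMRs in all. They made up 5.48% of the 8009 autosomal DMRs higher in MMS. A further 3 DMRs met the rule on chromosomes X and Y and were left out. The levels are given as a description without a test, because they chose the members.

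The tissue was whole hypothalamus of male C57/Bl6 pups, collected on postnatal day 6. MMS pups were separated from the dam and repeatedly handled for 1.5 h per day on postnatal days 4 to 6, while control pups were male littermates without it. DNA of 10 animals per group was combined at random into 3 pools per group and precipitated with an antibody against methylated cytosine (meDIP), with 1 pooled input for each group and 1 IgG control. The deposited table holds the authors' mean of each group and no value for a single library, so no spread between pools can be given, the number of reads per library behind a value is not known, and control and MMS are compared without replicate error. The same antibody stands in the labels of the input and IgG samples, which were identified by their titles, and the table's untreated and treated columns were read as control and MMS. The labelled tissue cannot be checked against marker genes in these values. In bulk tissue, more methylation per cell and more cells of a methylated type cannot be told apart.

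In mammalian DNA, methyl groups sit mainly on cytosines followed by guanine (CpG), and most CpG sites in gene bodies, intergenic DNA and repeats are methylated, whereas CpG-rich promoters are usually not. meDIP pulls down fragments with methylated cytosines, so the number of reads over a region depends on its methylation, its width and its number of CpG sites. Tandem satellite repeats near the centromeres are among the most heavily methylated parts of the mouse genome.

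The sequences below show the range of DNA found among the members. They are the plus strand of the RefSeq GRCm38 (mm10) reference, 5′ to 3′, whole for the narrowest regions and otherwise from the centre, with every CpG in capitals. The Gm33838 line is the member with the highest MMS mean and the chromosome 9 line is from the widest member. The Ajap1 and Cspg4 lines stand for high members in unique sequence, and the Trim71 and Trim43b lines for members dense in CpG. Promoter members follow in the Scrib and Slc2a10 lines, and the last line holds no CpG at all.
Gm33838 intron, chr9:35305314-35305578: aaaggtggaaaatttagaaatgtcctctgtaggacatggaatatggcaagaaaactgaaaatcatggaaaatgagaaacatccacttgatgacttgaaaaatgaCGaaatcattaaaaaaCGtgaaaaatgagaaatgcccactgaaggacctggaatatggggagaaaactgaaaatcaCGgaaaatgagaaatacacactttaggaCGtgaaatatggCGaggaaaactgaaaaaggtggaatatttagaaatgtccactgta
start of chromosome 9, upstream of Gm11168, chr9:3002349-3002582: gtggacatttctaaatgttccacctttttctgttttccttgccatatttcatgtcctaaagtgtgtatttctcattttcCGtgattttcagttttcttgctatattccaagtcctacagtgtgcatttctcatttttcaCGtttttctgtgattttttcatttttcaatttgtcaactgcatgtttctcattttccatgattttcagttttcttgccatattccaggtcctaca
intergenic, nearest Ajap1, chr4:153127423-153127622: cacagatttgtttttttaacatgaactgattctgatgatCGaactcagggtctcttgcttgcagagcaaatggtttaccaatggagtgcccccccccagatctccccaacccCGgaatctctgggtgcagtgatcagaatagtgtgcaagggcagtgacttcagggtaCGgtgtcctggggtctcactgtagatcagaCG
Cspg4 intron, chr9:56876850-56877009: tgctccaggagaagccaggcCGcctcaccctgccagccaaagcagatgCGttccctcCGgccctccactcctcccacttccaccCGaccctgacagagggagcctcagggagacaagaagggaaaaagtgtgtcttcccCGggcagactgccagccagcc
Trim71 exon, chr9:114512935-114513134: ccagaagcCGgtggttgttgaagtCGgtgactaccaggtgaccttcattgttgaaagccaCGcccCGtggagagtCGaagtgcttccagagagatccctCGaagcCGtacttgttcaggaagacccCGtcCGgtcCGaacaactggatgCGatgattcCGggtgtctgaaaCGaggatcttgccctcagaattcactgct
intergenic, nearest Trim43b, chr9:89101823-89101984: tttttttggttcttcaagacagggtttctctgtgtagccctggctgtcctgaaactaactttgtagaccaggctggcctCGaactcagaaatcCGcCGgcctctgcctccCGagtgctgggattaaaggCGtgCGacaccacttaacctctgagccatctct
Scrib promoter, chr15:76048434-76048593: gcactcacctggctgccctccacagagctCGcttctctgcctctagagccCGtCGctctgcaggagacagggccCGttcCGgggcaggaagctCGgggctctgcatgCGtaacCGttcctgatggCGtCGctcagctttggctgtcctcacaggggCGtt
Slc2a10 promoter, chr2:165503010-165503169: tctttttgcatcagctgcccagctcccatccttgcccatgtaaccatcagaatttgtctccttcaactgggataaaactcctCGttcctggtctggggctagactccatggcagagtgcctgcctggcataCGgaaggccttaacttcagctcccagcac
4930555G07Rik intron, chr10:87296774-87296949: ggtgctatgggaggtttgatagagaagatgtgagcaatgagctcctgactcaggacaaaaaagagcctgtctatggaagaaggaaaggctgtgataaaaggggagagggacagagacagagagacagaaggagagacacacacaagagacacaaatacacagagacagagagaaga

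The printed stretches of Trim71 and Scrib hold 13 and 11 CpG sites, against 2 in the Slc2a10 stretch and 0 in the 4930555G07Rik line, which ends in a stretch rich in purines. The Trim43b line, with 6 CpG sites in 162 bp, is soft-masked throughout and had an MMS mean of 4.74. The MMS mean of the 4930555G07Rik intron was 4.93, read from a region without a CpG in the reference.

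MMS means of the members were concentrated just above the limit. The median was 4.76 on the log2 scale, or 27.1 normalised reads, with quartiles at 4.6 and 5 and a highest value of 7.97 (251 normalised reads). The difference from control, MMS minus control, had a median of 4.93 and ran from 4.67 to 8.14, and it depends on where the control floor was set. Between 4.5 and 4.75 there were 208 members (47.4%), and 110 members (25.1%) reached 5 or more. Only 22 members (5.01%) reached 5.5, and 4 reached 6. Just inside the limit, 11 members stood at 4.5 and 16 at 4.51, with median widths of 689 and 300 bp. Just outside it, 10 DMRs stood at 4.49 and 17 at 4.48, with median widths of 588.5 and 595 bp. The DMRs on both sides of the limit therefore form a continuous series, and the limit of 4.5 marks no gap in the values.

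**Figure D1:**
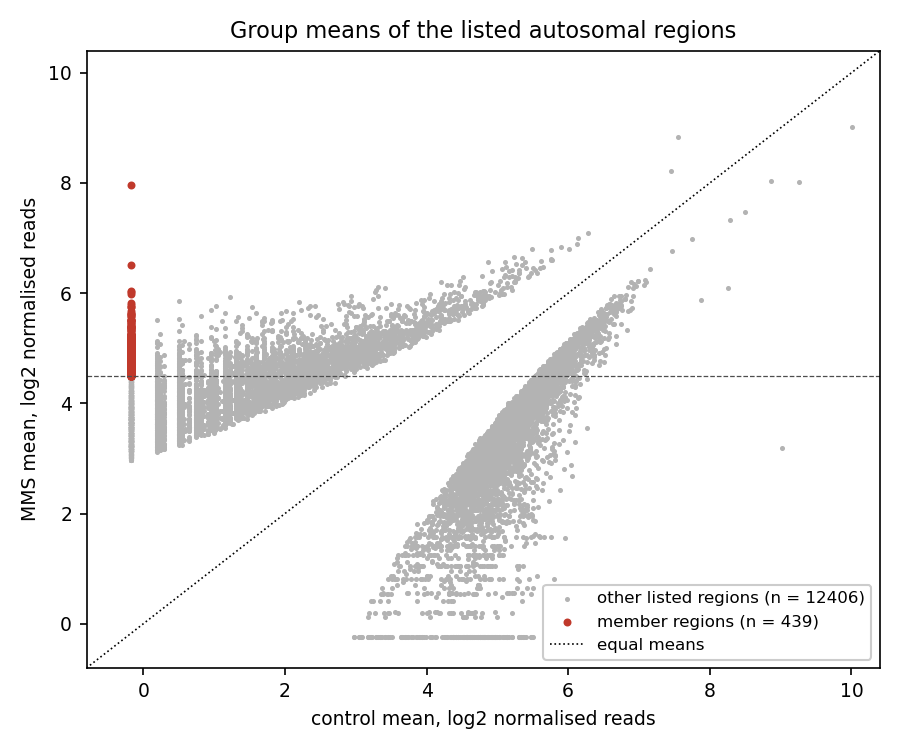
Authors' group means of the 12845 listed autosomal DMRs, control on the horizontal and MMS on the vertical axis, both in log2 normalised reads. Each point is a DMR, the dotted line marks equal means and the dashed line the MMS limit of 4.5; the 439 members form a column at the control floor of -0.17, and 1 member stands apart at 7.97.

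Among listed DMRs higher in MMS, the share with a control mean at the floor was lower at higher MMS means. The table lists only DMRs past the authors' FDR threshold, and a DMR with a low MMS mean can pass it only with a control mean near the floor, so this fall is in part set by the listing and is given as a description. A control mean at the floor was found in 1095 of 1255 DMRs higher in MMS with an MMS mean from 3 to 3.5 (87.3%), in 329 of 1420 from 4.5 to 5 (23.2%) and in 22 of 332 at 5.5 or more (6.63%). Members are thus the upper tail of a larger group, since a further 3421 autosomal DMRs had control at the floor with an MMS mean under 4.5. The mirror image, listed under the same threshold, was rarer in every class of level. Among DMRs higher in control, the MMS mean stood at its own lowest value of -0.24 in 74 of 1405 with a control mean from 4.5 to 5 (5.27%) and in 4 of 1362 at 5.5 or more (0.294%). In all, 106 of 4836 DMRs higher in control had a control mean of 4.5 or more with MMS at its floor, a share of 2.19%.

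**Figure D2:**
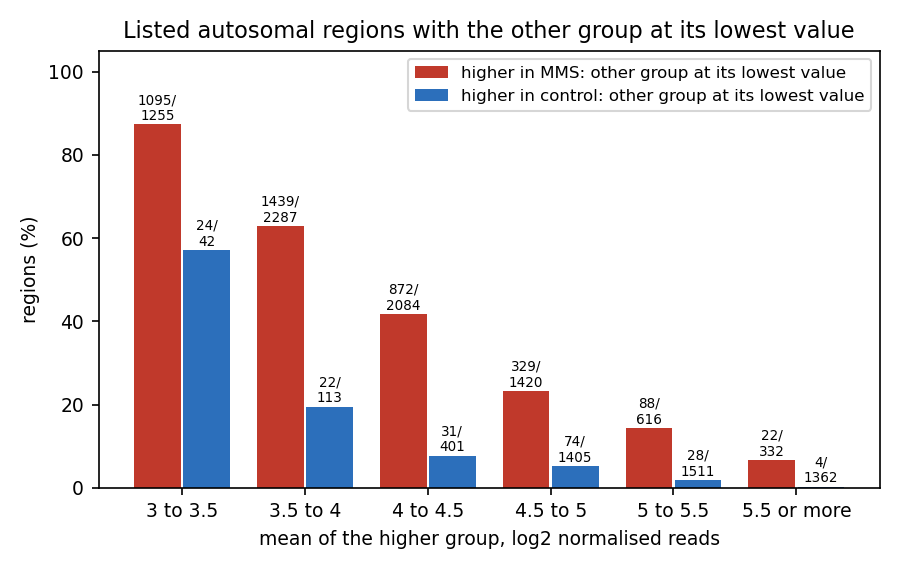
Share of listed autosomal DMRs (vertical axis, %) in which the other group stood at its lowest value, by the mean of the higher group in log2 normalised reads (horizontal axis). Red bars are DMRs higher in MMS and blue bars DMRs higher in control, with counts above the bars; the red bar is taller in every class, at 23.2% against 5.27% from 4.5 to 5.

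Members had a larger median width than the other DMRs at the control floor, nearer to that of strong MMS DMRs with control signal. Their median width was 708 bp, with a range from 152 bp (nearest Spats2, MMS mean 4.73) to 4689 bp, against 418 bp where control was at the floor and MMS under 4.5. Where MMS was 4.5 or more and control above its floor (1929 DMRs higher in MMS) the median was 770 bp, and over all autosomal DMRs 544 bp. The 106 mirror-image DMRs were the narrowest set, with a median of 190 bp and 67.9% of them under 300 bp, compared with 13.9% of members. No test was made between sets, since regions of the same libraries are not replicates.

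The number of CpG sites differed between the sets along with width, whereas CpG sites per 100 bp differed less. Members held a median of 9 CpG sites, against 5 in DMRs at the control floor under the MMS limit, 10 in strong DMRs with control signal and 7 over all autosomal DMRs. Per 100 bp the medians were close, at 1.25, 1.18, 1.38 and 1.32 in the same order. Median GC content was 47.0% in members and 47.4% over all autosomal DMRs, and soft-masked (repeat) bases made up a median of 17.8% and 20.6%. In the central 300 bp the median CpG density was 1.33 per 100 bp in both. Of the members, 67 (15.3%) held 20 or more CpG sites and 43 (9.79%) held 2 or fewer, against 9.80% and 16.4% of all autosomal DMRs. A single member had the base composition of a CpG island (0.228%, against 0.584% of all autosomal DMRs). This was set as an observed to expected CpG ratio over 0.6 and a GC content over 50%. The member was the Trim71 exon, with 45 CpG sites in 914 bp.

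**Figure D3:**
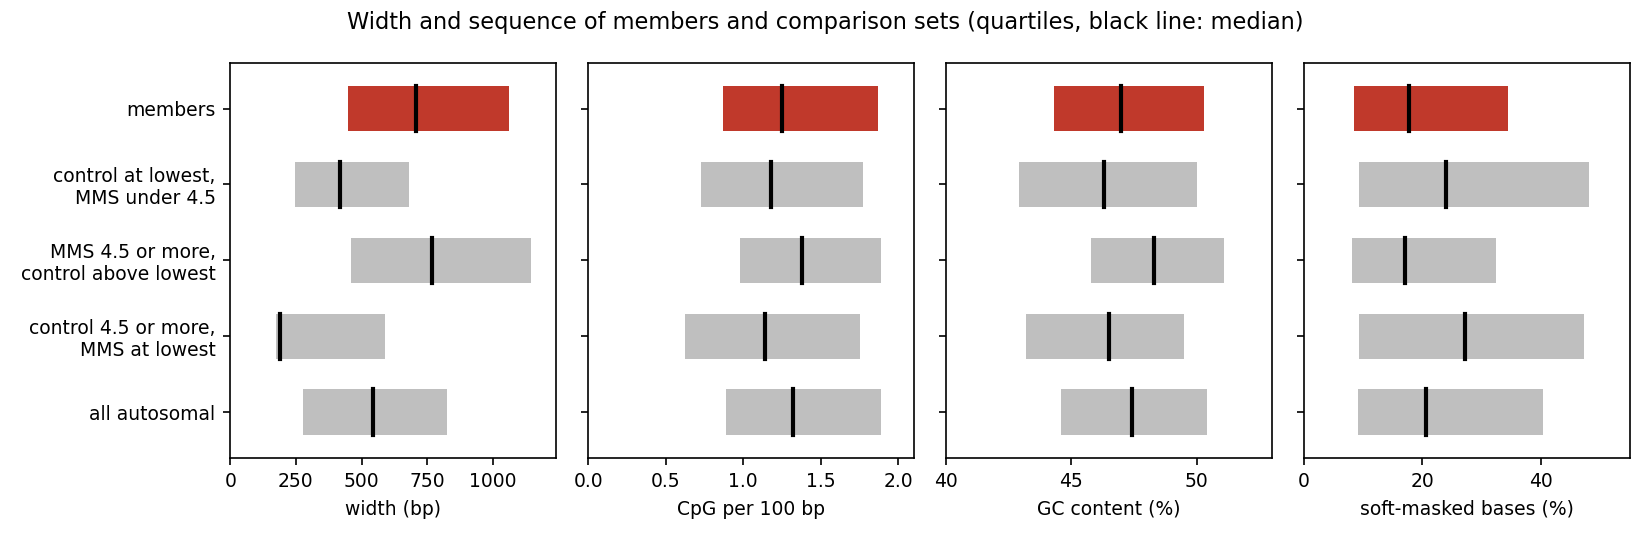
Width in bp, CpG sites per 100 bp, GC content in % and soft-masked bases in % for the 439 members (red) and 4 comparison sets (grey); bars run from the lower to the upper quartile over regions and black lines are medians. The GC axis starts at 40%; members have a median width of 708 bp against 418 bp for DMRs with control at its floor and MMS under 4.5, while the boxes overlap widely for sequence content.

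Among the members, higher MMS means went with more CpG sites and greater width. Spearman's rho across the 439 regions was 0.321 for the number of CpG sites, 0.306 for width, 0.127 for CpG per 100 bp and 0.0111 for GC content. Width and the number of CpG sites themselves had a rho of 0.728. In the 1929 strong DMRs with control signal, the MMS mean had a rho of 0.317 with width and 0.252 with CpG sites. With CpG per 100 bp their rho was 0.012. Regions of the same libraries are not independent replicates, so these values describe the sets and carry no test. The median width rose from 610 bp in members between 4.5 and 4.75 to 921 bp between 5.5 and 6, and the median CpG density from 1.19 to 1.78 per 100 bp. At the other end, 6 members held no CpG (1.37%, against 2.4% of all autosomal DMRs) and 9 held 1. Without a CpG, a region nearest Isx, an intestinal homeobox gene, had 4.77, beside the 4930555G07Rik intron printed above. The highest member with 1 CpG, chosen after its values were seen, was a 711 bp region in an intron of Apba2, a neuronal adaptor protein, with an MMS mean of 5.38 at chr7:64549775-64550485.

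The highest member lay in an intron of the long non-coding RNA gene Gm33838 at chr9:35305314-35305578. Its MMS mean was 7.97 (251 normalised reads), although it is only 265 bp wide and holds 5 CpG sites. The whole of it is soft-masked, and it has 14 other alignments of at least 100 bp and 95% identity in the reference, 9 of them over at least 90% of its length. Next came chr9:3033712-3036432 at 6.51 (91.1 normalised reads), over exons of Gm17535 and Gm26870, with 53 CpG sites in 2721 bp and 10 other alignments. Reads from other copies can fall on both regions, and how the authors placed reads with several alignments is not given in the sources used here.

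Both of these regions share sequence with the widest member, chr9:3000122-3004810, whose MMS mean was 5.22. This 4689 bp region holds 101 CpG sites, the most of any member, and it repeats itself at a shift of 234 bp with 75% of bases identical. That spacing is the textbook length of the unit of mouse major satellite DNA, the tandem repeat beside mouse centromeres; no repeat annotation by name was used here. The search that follows was set up after these values had been seen. Of all listed autosomal DMRs, 11 shared 5% or more of their 12-base words with the widest member, on either strand, and the next DMR shared 2.35%. Control stood at its floor in all 11 of them, compared with 3860 of all autosomal DMRs (30.1%). Of the 11, 7 were members, while members were 3.42% of all autosomal DMRs. The widest member is itself 1 of the 11 and stands at the floor by the rule, as do the other 6 members. Both counts are therefore a description. The authors used a pooled input per group and subtracted the IgG control, so a floor value need not mean that control had no reads. The part of this step in the floor values was not tested.

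Of the 11 DMRs, 5 lay on chromosome 9 and 7 lay within the first 4 Mb of their chromosome. Besides the 3 members above, the members were chr11:3100450-3102954 with an MMS mean of 5.46, chr12:67059221-67059813 in an intron of Mdga2 with 5.24, chr4:3089546-3091149 with 4.80 and chr3:56575486-56575774 with 4.57. They share from 25.2% to 32.4% of their words with the widest member. The other 4 fell short of the limit at 3.58 and 3.74 on chromosome 9, 4.04 on chromosome 11 and 4.47 in an intron of Mamdc2. The repeat-like members are poor in GC, at 34.7% to 39.3%, against the median of 47.0%, and 6 of the 7 have an observed to expected CpG ratio from 0.594 to 0.740, against a median of 0.25 over all members. The part of reads from other copies in these levels was not tested. Without these 7, the remaining 432 members had a median MMS mean of 4.75 and a median width of 707.5 bp.

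**Figure D4:**
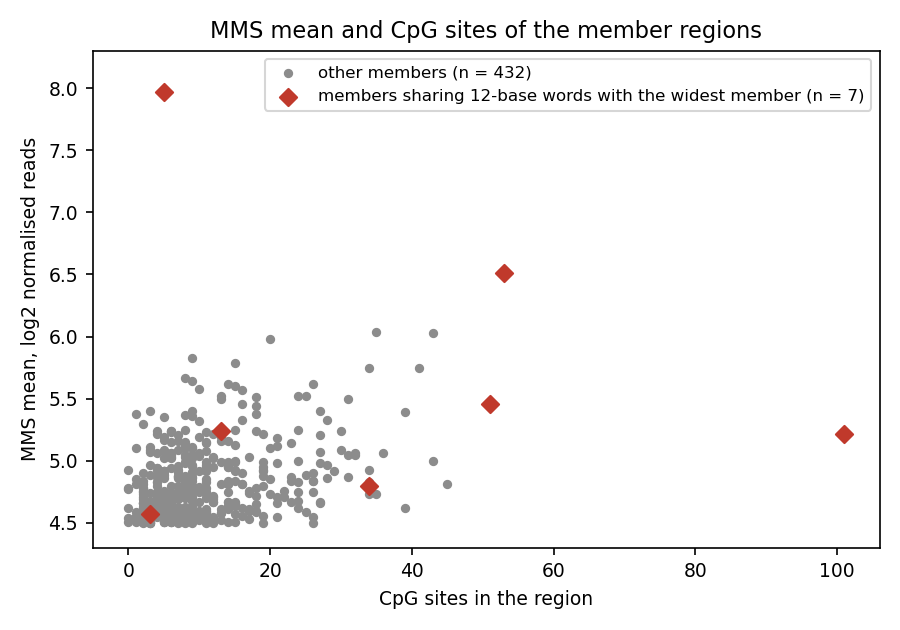
MMS mean in log2 normalised reads (vertical axis) against the number of CpG sites in the region (horizontal axis) for the 439 members. Red diamonds are the 7 members that share 12-base words with the widest member, among them the highest points at 7.97 and 6.51 and the region with 101 CpG sites; grey points are the other 432.

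Close copies elsewhere in the reference and long perfect tandem runs were found in a minority of members. Soft-masked (repeat) bases were common, and only 34 members (7.74%, against 9.51% of all autosomal DMRs) had none. Another alignment of at least 100 bp and 95% identity was found for 48 members (10.9%) and for 13.2% of strong DMRs with control signal. Most of these were partial, since only 3 members had one over 90% of their length. These were the Gm33838 region, the Ifi202b promoter and an intron of Apbb3. The most alignments, 12703, belonged to a region nearest Arid1b at chr17:4625641-4627091 with an MMS mean of 5.33. The longest of them spanned 161 bp of its 1451 bp. The Aldh18a1 intron had 7260, and after it came a region nearest Ctnnb1, the β-catenin gene, with 4188 and an MMS mean of 4.98. A perfect tandem run of 40 bp or more was present in 35 members (7.97%) and in 6.82% of all autosomal DMRs. Of the 82 members with a run of 20 bp or more, 31 had a CA or TG unit.

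Outside the satellite-like group, the strongest members lay in introns or between genes, apart from 1 at a transcription end. The region chr4:153126767-153128279 had an MMS mean of 6.04 with 35 CpG sites, and its nearest protein-coding start, that of the adherens junction gene Ajap1, is 354656 bp away. An intron of Smad7, an inhibitor of TGF-β and BMP signalling, had a mean of 6.03 over 2316 bp with 43 CpG sites. Neither region has another alignment in the reference at the same limits. A region 1063 bp upstream of Hinfp, a transcription factor for histone H4 genes, reached 5.98 with 381 other alignments of at most 134 bp. A region 14274 bp from the start of Cbln1, a secreted synapse organiser, reached 5.83 with 9 CpG sites.

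Of the next, an intron of Cspg4, the NG2 proteoglycan of oligodendrocyte precursors and pericytes, had a mean of 5.79 and, among the 12 highest, the richest sequence in GC at 57.3%. Prr13 at its transcription end and an intron of Aldh18a1, a mitochondrial enzyme of proline synthesis, both had 5.75. The other alignments of the Aldh18a1 region span at most 130 bp of its 2015 bp. The 12 highest ended with introns of the zinc finger factor Hivep3 (5.67) and of Rasgef1b, an exchange factor for Ras-like GTPases (5.64), and with a region 298391 bp from Nkx6-1, a homeodomain factor (5.62). Their CpG sites numbered 8, 9 and 26, and of these regions the Rasgef1b intron has 350 other alignments, of at most 159 bp of its 569 bp.

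Members lay mostly in introns and between genes, as did the listed DMRs in all. By the centre of the region, 200 (45.6%) lay in introns and 177 (40.3%) between genes, against 45.8% and 41.1% of all autosomal DMRs. Promoters of any gene held 21 (4.78%, against 4.10%), transcription ends 23 (5.24%, against 4.55%), exons 11 (2.51%, against 3.30%) and 3′ UTRs 7 (1.59%, against 1.14%). No member lay in a 5′ UTR, where 0.0545% of all autosomal DMRs lay. A protein-coding gene body held 217 members (49.4%, against 49.2% of all autosomal DMRs). A distance of over 100 kb to any protein-coding start was found for 88 members (20%, against 22.0%).

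The centre of 13 members (2.96%) lay in a protein-coding promoter, the window of 1000 bp before and 100 bp after a transcription start, compared with 2.64% of all autosomal DMRs. The highest, upstream of the ubiquitin-like gene Ubl4b, had an MMS mean of 5.36 with 9 CpG sites in 1558 bp. The Gm11168 promoter is the widest member, described above. Scrib, a scaffold of cell polarity, had 5.09 over a region with 30 CpG sites and a GC content of 59.7%, the highest of all members. These promoters differ widely in CpG content at similar levels.

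The glucose transporter gene Slc2a10 had 4.86 with 5 CpG sites, Klhl26 4.76 with 22 and the bicarbonate transporter gene Slc4a8 4.74 with 7. The promoter of 4930539E08Rik had 4.73 with 34. Aass, an enzyme of lysine breakdown, had 4.71 and the interferon-inducible Ifi202b 4.69. Below these were Gdap1 at 4.66, Pik3r5, a regulatory subunit of phosphoinositide 3-kinase, at 4.55 and Tjp1, a tight junction protein, at 4.5.

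Members were scattered singly over genes. They touched 220 protein-coding genes by their centre, and only 2 genes held more than 1 member. Of these genes, 130 also held a listed DMR that was not a member. Because members were only 3.42% of all autosomal DMRs, their scatter over genes is given as a description. Gm20388, an annotated read-through gene of 4434882 bp on chromosome 8, held 4 of its 56 listed DMRs as members, the highest at 4.98. Wipf2, which binds the actin regulator WASP, held 2 listed DMRs in all, and both were members. The DMR in its intron at chr11:98876665-98878205 had an MMS mean of 5.05 with 31 CpG sites, and the DMR in its 3′ UTR at chr11:98900078-98900276, with 1, lay just inside the limit at 4.52.

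The gene lists examined, which cover receptors, channels, adhesion, signalling and transcription factors, held few members. The 18 lists together held 13 members (2.96%), against 580 of all autosomal DMRs (4.52%), and no list held more than 3. For glutamate signalling there were a kainate receptor gene, Grik4, at 4.69 and a metabotropic receptor gene, Grm4, at 4.58. The scaffold gene Magi1 had 4.67 and the calcium channel gene Cacna1c 4.51. Among adhesion and guidance genes, Cdh10, a cadherin, had 5.25 in its 3′ UTR, and its 24 CpG sites in 466 bp are the densest of all members. Tenm3, a teneurin of synapse wiring, had 4.67 and the guidance cue Ntn1 4.5.

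Signalling genes of the FGF, Wnt, BMP and Notch list held 3 members (0.683%, against 0.389% of all autosomal DMRs). Besides Smad7 these were the ligand gene Bmp7 at 4.83 with 24 CpG sites and the receptor gene Fgfr2 at 4.51 with 8. The annotated body of Fgfr2 spans 2960900 bp and holds 19 listed DMRs. The forkhead gene Foxn3 had 5.51 with 18 CpG sites, the nuclear receptor gene Nr1h5 4.56, and the glial list held only Cspg4. Several lists held none. No member lay in the 9 listed DMRs of stress axis and immediate early genes, the 9 of hypothalamic neuropeptides and their receptors or the 15 of the DNA methylation machinery. None lay in the 41 of the presynaptic release machinery, the 13 of GABA and glycine receptors, the 15 of monoamine and acetylcholine receptors or the 49 of potassium channels. These zeros hold for the genes on the lists alone: the monoamine list held serotonin, dopamine and adrenergic receptors but not the histamine receptor gene Hrh2, and the neuropeptide list did not hold the neuropeptide S receptor gene Npsr1. Both of these, named here after their values were seen, held a member, with an MMS mean of 5.38 in an intron of Hrh2 and of 4.62 at the transcription end of Npsr1. These counts stand beside the background of 3.42% of all autosomal DMRs.

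Every autosome carried members, from 12 on chromosome 19 to 42 on chromosome 2. Per Mb of sequence they ranged from 0.118 on chromosome 10 to 0.269 on chromosome 11, around 0.183 over all autosomes. As a share of the listed DMRs of a chromosome they ranged from 2.08% on chromosome 10 to 4.42% on chromosome 2. The high density on chromosome 11 went with many listed DMRs there (843), of which members were 3.8%.

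**Figure D5:**
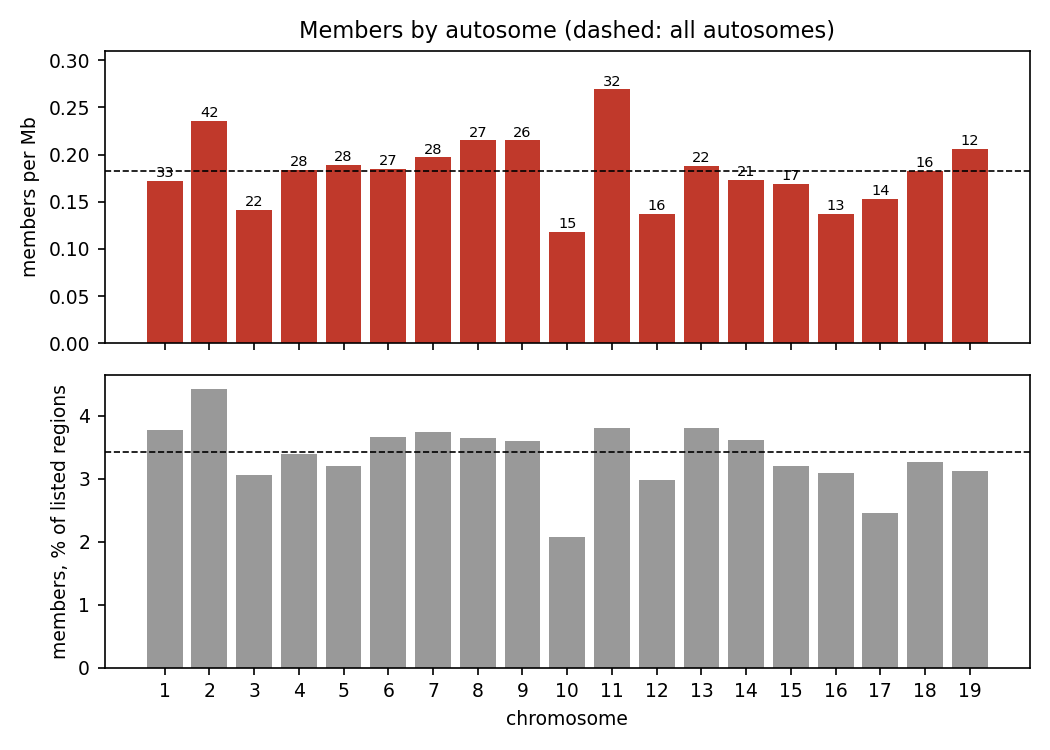
Members per Mb of sequence (upper panel, with counts above the bars) and members as % of the listed DMRs of the chromosome (lower panel) for the 19 autosomes; dashed lines are the values over all autosomes, 0.183 per Mb and 3.42%. Chromosome 11 has the highest density, 0.269 per Mb, and chromosome 10 the lowest density and share.

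Members rarely lay near each other. A second member was within 100 kb of 16 members (3.64%), against 5.34% of all autosomal DMRs with a member at that distance, and the median distance to the nearest other member was 1653660 bp. The closest were a pair at Slc10a7, a bile acid transporter family gene, at 4.6 and 4.54 and 21831 bp apart. The shares with a DMR of the opposite direction nearby were close to those of all autosomal DMRs. One that was higher in control lay within 100 kb of 197 members (44.9%, against 43.5% of all autosomal DMRs) and within 10 kb of 27 (6.15%, against 6.17%). The nearest case was a member at 4.51 in an intron of Gm14267, which lay 710 bp from a DMR with 5.5 in control and 4.38 in MMS. Next were a member at the transcription ends of Npr2, a natriuretic peptide receptor, and Spag8 (5.05, at 1390 bp) and the Pik3r5 promoter (at 2319 bp). At the Aass promoter, chr6:23127087-23127981, the member lay 5005 bp from a DMR of the opposite kind, with 4.38 in control and MMS at -0.24. At this gene the group at the floor thus differed between neighbouring DMRs.

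Motifs with a CpG, searched on both strands in the central 300 bp, were about as frequent in members as in the other DMRs. The E-box CACGTG was found in 22 members (5.01%, against 5.60% of all autosomal DMRs) and the GC box GGGCGG in 29 (6.61%, against 5.45%). The cAMP response element TGACGTCA and the Egr1 site GCGTGGGCG, which overlaps the GC box in part of its letters, were in 0 members and in 0.288% and 0.0467% of all autosomal DMRs. A match describes these letters in the reference only.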

How the data were processed

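meDIP-seq was deposited for 3 control and 3 MMS pools, 2 inputs and 1 IgG control of mouse hypothalamus. Per the methods, the authors used Torrent Suite for alignment to mm10 and MACS2, set to the human genome size, for broad peaks over input, and compared the groups with DiffBind and DESeq2, using a pooled input per group and subtracting the IgG control. The deposited values used here are the authors' log2 means of normalised reads over all libraries and over each group. The deposited fold column, p-value and FDR hold the authors' own comparison and were not used. The table lists only regions that passed the authors' FDR threshold, so the regions tested in all are not known here. Some items are not reported here. No value per library was used, so no test, interval or spread between pools was computed.

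The members, comparison sets and gene lists were chosen with earlier results of these data known. Width, CpG, GC content and soft-masked (repeat) share came from the RefSeq GRCm38 genome, and features from GENCODE M21 by the centre of each region with promoters (1000 bp before to 100 bp after a start) first, then transcription ends, UTRs, exons and introns, and intergenic otherwise. Other alignments were counted with BLAST 2.17.0 at 100 bp and 95% identity, the region itself left out. Named regions are the 12 highest, the highest of each feature and gene list, genes with 2 or more members, the 10 highest promoters, extremes of CpG content, alignments and width, and the 3 nearest to a region higher in control or to another member; others are named as chosen after their values were seen. The scripts were tested on simulated sequences and ran under Python 3.11.15 with pandas 2.3.3, numpy 2.4.6, pysam 0.24.0, scipy 1.17.1 and matplotlib 3.10.9.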

Additional observations from a re-analysis of the deposited data

How the results depend on the processing

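No paired analysis was possible because the deposited table holds group means and no value per library, and leaving out single pools was not possible for the same reason. Of 48 recomputed values, 33 stayed within the counting or order-statistic interval of the described value, or within 1.5 times it for counts. These intervals take regions as independent, which regions of the same libraries are not. The alternative sets contain the members or are drawn from them, so a value inside its interval is a description only. An MMS limit of 4 selected 1311 regions with a median MMS mean of 4.34, a median width of 589 bp and 55 regions in the gene lists, and a limit of 5 selected 110 with 5.2, 869.5 bp, 1.44 CpG sites per 100 bp and 21.4% soft-masked bases. A control mean within 0.5 of its floor gave 477 regions and all chromosomes 442. Another alignment was found for 0.683% of members when it had to span 90% of the region and for 18.7% at 90% identity. Promoters held 5.01% of members both with a window of 2000 bp upstream to 500 bp downstream and with any overlap. Within 10 kb of a region higher in control lay 6.15% of members. Any of the 4 motifs was in 11.4% of members in the central window and in 22.1% over the whole region. Leaving out the 7 satellite-like members, an alternative chosen after seeing the data, left the number and the medians within those intervals. The control floor limits every difference given: how far control lay below it cannot be read from these values.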
